A study of Mus musculus with 6 samples.

Results

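The genes described here sense and handle extracellular nucleotides: ion channels gated by ATP (P2rx4, P2rx7), receptors coupled to G proteins for ATP, UTP and UDP (P2ry2, P2ry6) or for ADP and UDP-sugars (P2ry12, P2ry13, P2ry14), the ectonucleotidase Entpd1 (CD39), the adenosine receptor Adora2b and the ATP release channel Panx1. They were chosen by name around the sensing of ATP and ADP by microglia, known from work on neuropathic pain. Not all of them encode receptors for ATP or ADP. Of 10 listed genes, 7 had a row among the 12327 genes of the table, matched by Ensembl identifier to the mouse GENCODE M21 annotation.

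RNA came from BV2, an immortalised mouse microglial cell line, grown in high-glucose medium with serum. The 3 GCH1 knockdown libraries (Ad-shGCH1) were made from cells 48 hours after infection with an adenovirus that carries a short hairpin RNA against GCH1. The 3 negative control libraries (Ad-NC) came from the same subline. The name Ad-NC may stand for a control virus, but the treatment label names infection only for the knockdown cells and the series text calls the controls wild type. Whether the controls were infected is thus unclear, and infection as such and loss of Gch1 cannot be told apart. The labels do not state separate cultures within a group, and p-values then measure only how these libraries vary, which may be technical variation.

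ATP leaves stressed or damaged cells through pannexin channels, among other routes, and opens P2X channels on microglia. Entpd1 and related surface enzymes cut ATP and ADP down to AMP, which other enzymes turn into adenosine. In resting microglia of the brain P2Y12 steers processes towards injured tissue, P2Y6 is linked to phagocytosis, P2X4 of spinal microglia to pain after nerve injury, and P2X7 to the NLRP3 inflammasome. GCH1 makes the first intermediate of tetrahydrobiopterin, a cofactor of nitric oxide synthases, and is itself studied in neuropathic pain. The comparison asked whether these transcripts differ when Gch1 is knocked down.

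No unit was named, and the values are read here as FPKM, fragments per kilobase of transcript scaled to the depth of the library. Levels of different genes can then be compared per length. The targeted gene Gch1 fell from 7.12 ± 0.20 to 3.19 ± 0.25 FPKM (SD, n = 3 each), as the labels require in each library. No counts were given, and depth was estimated from the smallest step of the values as between 5.25 and 5.58 gigabases (Gb) of aligned bases in controls and between 6.32 and 7.61 Gb in knockdown libraries. At that depth the mean coverage of a base ranged from 7.08-fold to 9.75-fold for Adora2b, the weakest of the 7 genes, and from 35.7-fold to 56.2-fold for P2rx4. Of 18 microglial markers 13 had a row, among them Csf1r, Trem2 and the transcription factor gene Spi1. The microglial identity gene Sall1 had none, and Tmem119, which marks microglia in the brain, lay at 0.567 ± 0.082 FPKM in the controls (SD, n = 3).

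P2ry12, P2ry13 and P2ry14 had no row and were not analysed here. These receptor genes lie on the minus strand of one stretch of chromosome 3 (GRCm38), with 54.3 kb between P2ry14 (59113855 to 59153618) and P2ry13 (59207892 to 59210882), and 5.39 kb between P2ry13 and P2ry12 (59216272 to 59262871). Gpr171, a relative of the P2Y family, and Med12l, whose annotation overlaps all 3 on the other strand, had no row either. Every gene in the table reached a mean of at least 0.501 FPKM in 1 or both groups. Whether these genes fell under that level or were left out for another reason cannot be told from the table.

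Among the 7 genes with a row, P2rx4 was the most abundant and Adora2b the least. Over the 6 libraries P2rx4 lay at 7.14 ± 0.22 FPKM, Entpd1 at 6.14 ± 0.33, P2rx7 at 5.83 ± 0.97, P2ry2 at 3.18 ± 0.32, Panx1 at 2.56 ± 0.22, P2ry6 at 2.29 ± 0.22 and Adora2b at 1.39 ± 0.22 FPKM (mean ± SD over both groups, n = 6). The P2X channels and CD39 thus lay above the G protein-coupled receptors and the release channel. Neighbours in this order did not all separate: Entpd1 exceeded P2rx7 in 5 of 6 libraries and Panx1 exceeded P2ry6 in 4 of 6, with overlapping ranges. The other 4 neighbouring pairs kept their order in all 6 libraries, without overlap. The median gene tested had a mean of 6.43 FPKM, and 6 of the 7 lay below it. P2rx4 stood at percentile 53.5 of the tested genes and Adora2b at percentile 13.2.

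**Figure D1:**
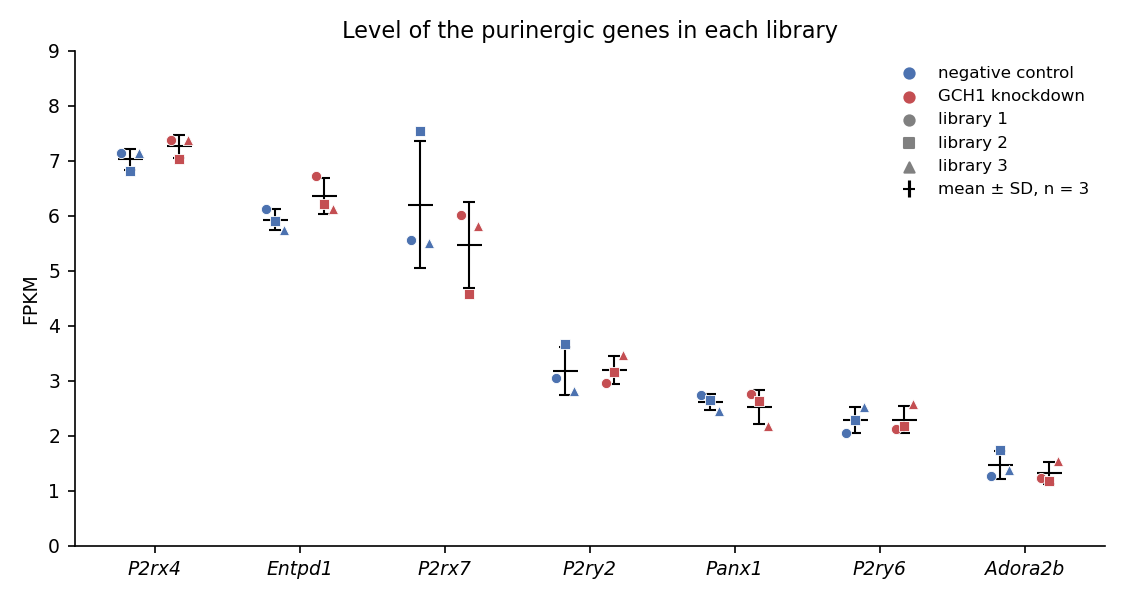
FPKM (y axis) of the 7 purinergic genes in each of the 6 libraries, controls in blue and knockdown libraries in red, with the marker shape giving the library number and bars the mean ± SD of 3 libraries. The groups overlap in each gene, and control library 2 stands above the other 5 for P2rx7 at 7.53 FPKM.

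None of the 7 genes passed the test between knockdown and control. The test was limma on log2(FPKM + 1) over 12222 genes, with a call at a Benjamini-Hochberg (BH) adjusted p under 0.05, which 10 genes (0.0818%) reached. With 10 calls in all, 0 of 7 is what this background gives. At an unadjusted limma p under 0.05 the count was also 0 of 7, against 11.3% of all genes. In 0 of 7 did the groups fail to overlap, against 18.4% of all genes. Of the 7, 4 were above control and 3 below, their median log2 fold change being 0.00, against 0.01 over all genes tested, of which 53% were above control. Fold changes on this scale are smaller than those of the FPKM values themselves, most of all for weakly expressed genes such as Adora2b. The exact permutation p of a single gene over 3 against 3 libraries cannot go below 0.1, and for these genes it lay between 0.2 for Entpd1 and 1 for P2ry2 and P2ry6 (two-sided).

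Of the P2X channels, P2rx4 was the steadiest of the 7 genes (coefficient of variation 3.04% over 6 libraries) and P2rx7 the most variable (16.6%). P2rx4 (ENSMUSG00000029470.15; chromosome 5, 122707544 to 122729738, plus strand) encodes the channel that microglia of the spinal cord raise after nerve injury. It was at 7.14, 6.81 and 7.13 FPKM in controls 1 to 3 and 7.38, 7.02 and 7.38 FPKM in knockdown libraries 1 to 3. Knockdown libraries 1 and 3 lay above all controls, and knockdown library 2 lay below controls 1 and 3. The log2 fold change was 0.04 (SE 0.05, 95% interval -0.07 to 0.15, limma BH adjusted p = 0.763).

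P2rx7 (ENSMUSG00000029468.17; chromosome 5, 122643911 to 122691432, plus strand) lies 16.1 kb before P2rx4 on the same strand and encodes the low-affinity ATP channel that triggers inflammasome activation. It was at 5.57, 7.53 and 5.50 FPKM in the controls and 6.01, 4.57 and 5.81 FPKM in the knockdown libraries. The highest value was control library 2 and the lowest knockdown library 2, and of the 4 between them the knockdown libraries lay above the controls, against the direction of the means. Its mean was 88.2% of control, with a log2 fold change of -0.15 (SE 0.13, 95% interval -0.46 to 0.16, limma BH adjusted p = 0.685). Without control library 2 the log2 fold change was -0.02. The ratio of P2rx7 to P2rx4 within a library was 0.780, 1.11 and 0.771 in the controls and 0.815, 0.651 and 0.787 in the knockdown libraries, so that P2rx7 exceeded P2rx4 in control library 2 and in no other.

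The pair of P2Y receptor genes with a row also lies side by side, 21.9 kb apart on the minus strand of chromosome 7. P2ry2 (ENSMUSG00000032860.5; 100996568 to 101012866) encodes a receptor for ATP and UTP. It was at 3.04, 3.66 and 2.81 FPKM in the controls and 2.95, 3.16 and 3.47 FPKM in the knockdown libraries. All 3 knockdown values lay within the range of the controls. P2ry6 (ENSMUSG00000048779.5; 100937630 to 100974649), the UDP receptor, was at 2.05, 2.28 and 2.52 FPKM in the controls and 2.13, 2.17 and 2.58 FPKM in the knockdown libraries. The groups were interleaved here too, and the means were 2.28 ± 0.24 and 2.29 ± 0.25 FPKM (SD, n = 3 each). The log2 fold change was 0.01 for P2ry2 (SE 0.09, 95% interval -0.20 to 0.22) and 0.0047 for P2ry6 (SE 0.08, 95% interval -0.19 to 0.20), with limma BH adjusted p of 0.974 and 0.985.

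Entpd1, which removes the ligands of these receptors, had the smallest p of the 7. Entpd1 (ENSMUSG00000048120.16; chromosome 19, 40612366 to 40741602, plus strand) was at 6.13, 5.91 and 5.75 FPKM in the controls and 6.73, 6.21 and 6.12 FPKM in the knockdown libraries. Only the highest control and the lowest knockdown library overlapped, and by little. Its mean was 107.2% of control, with a log2 fold change of 0.09 (SE 0.05, 95% interval -0.04 to 0.21, unadjusted p = 0.158 and limma BH adjusted p = 0.574).

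Adora2b (ENSMUSG00000018500.2; chromosome 11, 62248984 to 62266453, plus strand), the low-affinity adenosine receptor that raises cyclic AMP, was at 1.27, 1.74 and 1.38 FPKM in the controls and 1.23, 1.18 and 1.54 FPKM in the knockdown libraries. The lowest values were knockdown libraries 1 and 2, and knockdown library 3 exceeded controls 1 and 3. The log2 fold change was -0.09 (SE 0.10, 95% interval -0.32 to 0.14, limma BH adjusted p = 0.751), with a mean at 89.8% of control, and it was -0.01 without control library 2. Panx1 (ENSMUSG00000031934.14; chromosome 9, 15002128 to 15045478, minus strand), which forms the ATP release channel, was at 2.74, 2.66 and 2.44 FPKM in the controls and 2.76, 2.63 and 2.17 FPKM in the knockdown libraries. Its highest and lowest values were both in knockdown libraries. The log2 fold change was -0.04 (SE 0.08, 95% interval -0.23 to 0.15, limma BH adjusted p = 0.871).

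**Figure D2:**
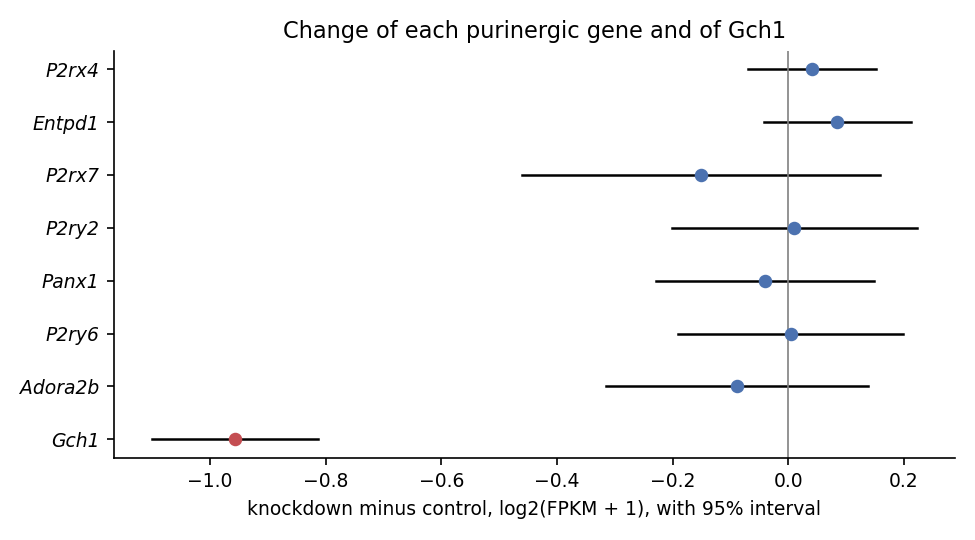
Difference between knockdown and control on the scale of log2(FPKM + 1) for the 7 purinergic genes and Gch1, as points with 95% intervals from limma. The interval of each purinergic gene holds 0, while that of Gch1 runs from -1.10 to -0.81.

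The intervals show what size of change the data could still hold. Over the 7 genes the lowest bound was -0.46, for P2rx7, and the highest 0.22, for P2ry2. On the scale of log2(FPKM + 1) a 1.5-fold change of FPKM is smaller than 0.58, the log2 of 1.5, most of all in weakly expressed genes. The bounds are therefore not set against such a change. The intervals were narrowest for P2rx4 and Entpd1. An adjusted p above the threshold does not show that a transcript is the same in both groups. RNA levels say nothing of receptor protein at the surface, which was not measured.

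Leaving out single libraries moved these small differences. Control library 2 had the highest value for 3 of the 7 genes (P2rx7, P2ry2 and Adora2b) and the lowest for P2rx4. Without it P2ry2 was at a log2 fold change of 0.09, the highest of its 6 values with a library left out. P2rx4 and Entpd1 were above control, and P2rx7 and Adora2b below, in each of the 6 fits that left out a library. The sign of P2ry2 turned in 3 of these fits, that of P2ry6 in 2 and that of Panx1 in 1. The GC content of transcripts moved with the libraries too: transcripts in the lowest of 5 GC classes stood above those in the highest, relative to the mean of the 6 libraries, by 0.06 (log2) in control 2, 0.11 in knockdown 1 and 0.05 in knockdown 2, and below them in the other 3. With the trends of GC content and transcript length removed together, the log2 fold change of Entpd1 was 0.06 in place of 0.09, that of P2rx7 -0.14 in place of -0.15, that of P2ry2 0.04 in place of 0.01 and that of P2ry6 0.025 in place of 0.0047. P2rx4 was then at 0.04, Panx1 at -0.02 and Adora2b at -0.10, and the part of GC content alone was not tested.

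**Figure D3:**
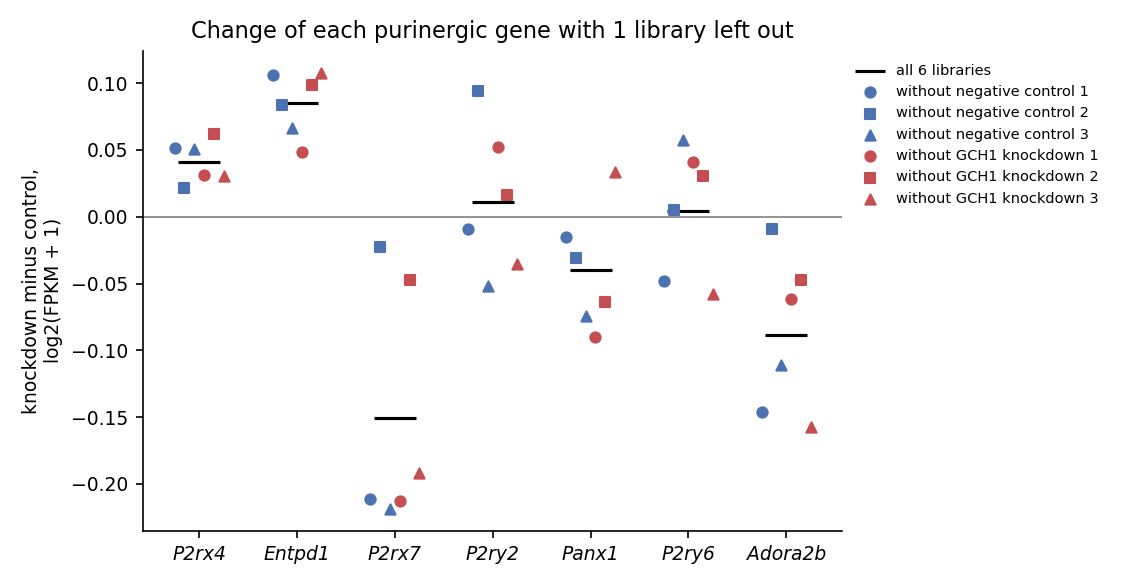
Log2 difference between knockdown and control of the 7 purinergic genes with all 6 libraries (black bar) and with each library left out (points, coloured by the group of the library left out). P2rx7 moves from -0.15 to -0.02 without control library 2, while P2rx4 stays between 0.02 and 0.06.

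Genes with the pattern most like that of a purinergic gene were sought among 10132 protein-coding genes with a control mean of at least 1 FPKM, by the root mean square distance between centred log2(FPKM + 1) values over the 6 libraries. Nearest to Entpd1 were Pgm2l1 (0.017) and Pex13 (0.017), a peroxisomal import gene. Nearest to P2rx7 were Uri1 (0.044) and Rmnd5a (0.071), and nearest to Adora2b were Lrrc40 (0.026) and Limk1 (0.032), a kinase of the actin cytoskeleton. None of the 6 passed the test between groups, and with 6 libraries such closeness is a description.

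The wider purinergic family was sparsely represented. Of 13 other P2X, P2Y and related receptor genes 3 had a row, and 0 passed. P2ry10b, a P2Y-like receptor gene, was more abundant than any of the 7, at 10.9, 11.5 and 8.85 FPKM in the controls and 12.2, 11.9 and 11.4 FPKM in the knockdown libraries. Only knockdown library 3 fell below a control, and the log2 fold change of 0.18 (SE 0.09) did not pass (limma BH adjusted p = 0.506). It was 0.07 without control library 3, 0.25 without control library 2 and 0.09 with the GC and length trends removed. P2ry1, the ADP receptor that signals through calcium, had a log2 fold change of -0.07 (SE 0.09). P2rx3, best known from sensory neurons, averaged 0.990 ± 0.074 FPKM in control and 1.13 ± 0.08 FPKM in knockdown libraries (SD, n = 3 each). Its annotation overlaps Ssrp1 on the other strand, which stood at 51.3 FPKM in the controls, and since no source used here gives the strand setting of the quantification, the reads of P2rx3 cannot be told apart from those of Ssrp1. The adenosine receptor genes Adora1, Adora2a and Adora3 had no row, so Adora2b was the only adenosine receptor gene with one.

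Among 18 further ectonucleotidases and surface phosphatases 8 had a row, 3 above and 5 below control (median log2 fold change -0.01), and 0 passed the test. The groups failed to overlap in 1 of the 8, against 18.4% of all genes. Nt5e (CD73), which converts AMP to adenosine, had no row, nor did Entpd2, Entpd3 or Entpd8, the other members of the family that act at the cell surface. Cant1, a nucleotidase of the secretory pathway that acts on UDP, had the smallest p of this list. It was at 8.42, 7.47 and 7.97 FPKM in the controls and 5.32, 5.63 and 6.44 FPKM in the knockdown libraries. All 3 knockdown values lay below all 3 controls, but the log2 fold change of -0.40 (SE 0.08) did not pass (limma BH adjusted p = 0.239, and 0.196 to 0.464 over its alternatives). Entpd4 was at -0.07 and Entpd6, like Entpd4 an enzyme of intracellular membranes, at 0.04.

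ATP release and adenosine handling held no called gene either. Of 18 release channels and carriers other than Panx1 8 had a row, 2 above and 6 below control, with a median of -0.01 and 0 past the test. In 0 of the 8 did the groups fail to overlap, against 18.4% of all genes. Lrrc8a, the obligatory subunit of volume-regulated anion channels, was at 21.3, 21.5 and 20.5 FPKM in the controls and 13.7, 21.9 and 21.6 FPKM in the knockdown libraries. Its log2 fold change of -0.17 rested on knockdown library 1, without which it was 0.04. The annotation of Lrrc8a overlaps Gm28035 on the same strand, at 0.638 FPKM in the controls, so the split of reads is uncertain. Of 21 genes of adenosine transport and metabolism 16 had a row, 9 above and 7 below control, with a median of 0.01, and 0 passed. In 4 of the 16 the groups did not overlap, against the same 18.4% of all genes. The nucleoside transporter gene Slc29a3 (log2 0.13, SE 0.05), the nucleotidase gene Nt5c2 (0.12, SE 0.05) and Pnp, purine nucleoside phosphorylase (0.15, SE 0.07), had limma BH adjusted p of 0.414 to 0.47. The annotation of Pnp overlaps its near-identical copy Pnp2, which was at 3.39 FPKM in the controls, so the split of reads between them is uncertain.

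Downstream of P2X7, 13 of 16 inflammasome and interleukin-1 genes had a row, 8 above and 5 below control (median log2 fold change 0.05), and 0 passed the test. In 2 of the 13 the groups did not overlap, against 18.4% of all genes. Nlrp3, the sensor that P2X7 activates through potassium efflux, averaged 18.8 ± 0.82 FPKM in control and 19.7 ± 0.78 FPKM in knockdown libraries (SD, n = 3 each). Il1b and the adaptor gene Pycard had no row. Txnip, a thioredoxin-binding protein linked to NLRP3, was at 200, 221 and 198 FPKM in the controls and 176, 161 and 180 FPKM in the knockdown libraries. All 3 knockdown values lay below the controls, and the log2 fold change of -0.26 (SE 0.06) had a limma BH adjusted p of 0.269. Nlrc4, another inflammasome sensor, was at 0.18 (SE 0.07, adjusted p = 0.387), and Casp1, the protease that matures interleukin-1β, at 0.13 (SE 0.07, adjusted p = 0.502).

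Of 23 genes around P2X4 in neuropathic pain 17 had a row, 6 above and 11 below control (median log2 fold change -0.09, against 0.01 over all genes), and 0 passed the test. In 6 of the 17 the groups did not overlap, against 18.4% of all genes. The transcription factor gene Irf8, known to act upstream of P2rx4 in microglia, averaged 17.6 ± 0.69 FPKM in control and 17.7 ± 0.77 FPKM in knockdown libraries (SD, n = 3 each). Irf5, which acts between Irf8 and P2rx4 and was chosen here with its values known, stood at 5.80, 11.5 and 7.39 FPKM in the controls and 12.5, 10.8 and 11.7 FPKM in the knockdown libraries. Control library 2 lay among the knockdown libraries, and the log2 fold change of 0.50 (SE 0.20) had a limma BH adjusted p of 0.414. The annotation of Irf5 overlaps Tnpo3 on the other strand, at 6.79 FPKM in the controls, so the split of reads is uncertain. Tnf (log2 -0.24, SE 0.08) and Ptges (-0.19, SE 0.07), of the same list, had smaller p than Irf5 and groups without overlap. Their limma BH adjusted p was 0.366 and 0.375. Csf1, a growth factor of microglia that injured sensory neurons release, was at 44.1, 41.6 and 39.6 FPKM in the controls and 32.3, 33.8 and 33.7 FPKM in the knockdown libraries. The log2 fold change of -0.32 (SE 0.05) had a limma BH adjusted p of 0.156. Mapk14, the p38α kinase through which P2X4 drives the release of brain-derived neurotrophic factor, was at 17.8, 17.4 and 10.6 FPKM in the controls and 9.90, 8.69 and 8.75 FPKM in the knockdown libraries. Control library 3 stood nearer to the knockdown libraries than to the other controls. The log2 fold change of -0.65 (SE 0.18) did not pass (limma BH adjusted p = 0.307). It passed without control library 3 (-0.88, limma BH adjusted p = 0.0254, the lowest over its alternatives, the highest being 0.534). Fyn, a kinase of the Src family, was at -0.14 (SE 0.04, adjusted p = 0.343), and Bdnf itself had no row.

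Of 48 genes of G protein and calcium signalling 41 had a row, 21 above and 20 below control (median log2 fold change 0.00), and 0 passed the test. In 8 of the 41 the groups did not overlap, against 18.4% of all genes. Gnai2, the G protein subunit that P2Y12-type receptors use, and Gnaq, which P2Y2 and P2Y6 use, were at log2 fold changes of -0.05 and 0.02. Rgs2, which switches off Gq signalling, was at 19.4, 19.4 and 18.3 FPKM in the controls and 23.6, 21.8 and 23.3 FPKM in the knockdown libraries. These groups did not overlap, and the log2 fold change of 0.25 (SE 0.05) did not pass (limma BH adjusted p = 0.239). Gnb1 (-0.10, SE 0.03) and the small GTPase gene Rac2 (-0.11, SE 0.04) had adjusted p of 0.359 and 0.373.

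**Figure D4:**
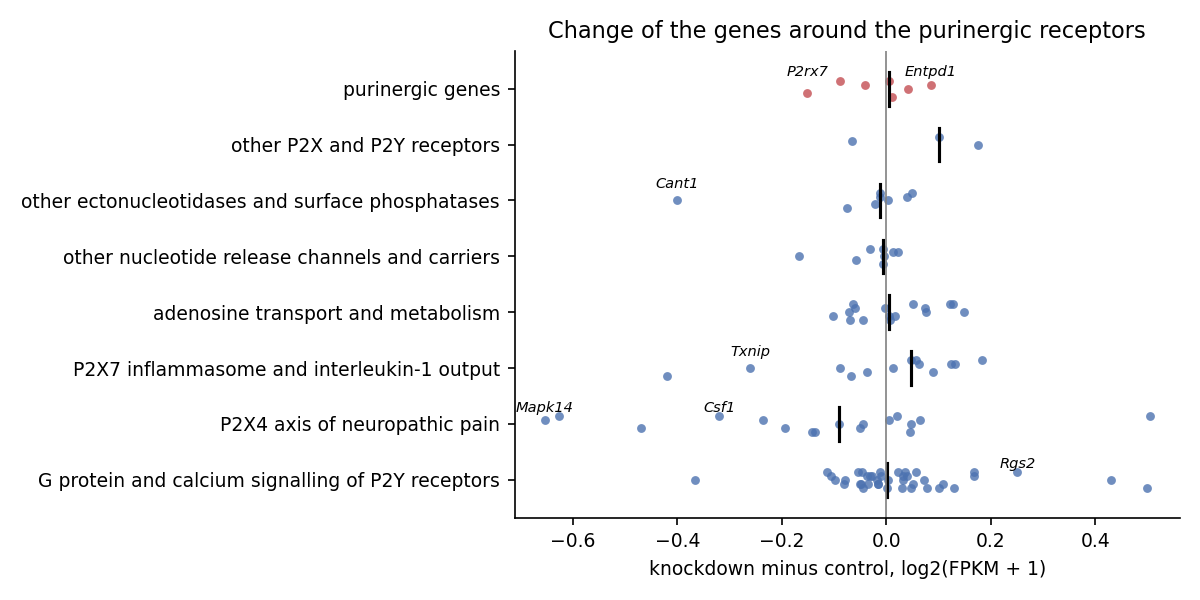
Log2 difference between knockdown and control (x axis) of each measured gene in 8 groups: the 7 purinergic genes in red and 7 surrounding lists without them in blue, with a black bar at each median. The 7 purinergic genes lie between -0.15 and 0.09, and Mapk14 lies lowest at -0.65.

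Few markers of other cell types had a row. No astrocyte or neuron marker of 7 each had a row, and of 28 further markers 5 did: Cnp, Flt1, Vwf, Acta2 and Lck, at log2 fold changes from -0.19 for Lck to 0.13 for Vwf, with 0 past the test. Their control means were 22.3 FPKM for Flt1 (percentile 84.8 of the tested genes), 5.15 for Cnp, 4.48 for Vwf, 0.959 for Lck and 0.506 for Acta2. For Vwf and Lck the groups did not overlap. The annotation of Cnp overlaps Dnajc7 on the other strand, which stood at 14.3 FPKM in the controls. Of the 13 microglial markers 5 were above and 8 below control (median log2 fold change -0.03), and 0 passed. In 2 of the 13 the groups did not overlap, against 18.4% of all genes. The lysosomal gene Cd68 was at -0.09, and Aif1, the gene of the marker IBA1, at 0.24 (SE 0.10, limma BH adjusted p = 0.417). Adgre1, which encodes F4/80, was at -0.11. The markers with the widest spread were Itgam, between 7.10 and 31.1 FPKM over the 6 libraries (log2 -0.15, SE 0.57), and Cx3cr1, the fractalkine receptor gene, between 0.30 and 3.16 FPKM (log2 -0.47, SE 0.39). The annotation of both overlaps other measured genes, so the split of reads is uncertain. All RNA came from the BV2 line, so rows for markers of other cell types are not read as the presence of such cells. In a bulk measurement, fewer cells that express a gene and less RNA per cell cannot be told apart.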

How the data were processed

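The authors deposited 1 table with a value per gene and library. Its unit is not named, and the deposited values behave as FPKM: they sum to 224291 to 230292 per library, and value times transcript length falls within 0.1 of a whole step in 74.8% to 77.1% of the 1500 single-transcript genes with the fewest bases. Read as 1 base, that step gives 5.25 to 7.61 Gb of aligned sequence. It was the best-fitting step in a limited range of depths, and the share comes from the same genes. Depths outside that range were not tried. HISAT2, StringTie and edgeR appear in the submitters' processing notes without roles, as does the human build hg38, although all identifiers are of mouse. No source used here gives the annotation release or strand setting.

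Symbols and coordinates came from GENCODE M21 (GRCm38), which matched 12300 of 12327 identifiers without version and 10904 with version. Genes that reached 0.5 FPKM in 3 or more libraries, 12222 in all, were compared by limma 3.58.1 (R 4.3.3) on log2(FPKM + 1), with a mean-variance trend, no covariate and BH adjustment over all of them. Other calculations used Python 3.11.15. The test was tried on simulated data with independent normal noise whose spread followed the mean level. These had no spread particular to a gene, no GC trend and no replicate structure, so they do not show how the test performs on the real libraries. The genes, lists and alternatives were chosen with earlier results of these data known. Named are all 7 genes, Gch1, up to 3 genes of each list with the smallest p, measured markers of other cell types and the nearest genes in pattern; other genes were named after their values were seen. The 17 alternatives are a block for the replicate number, removal of the trend with GC content and length (loess, span 0.3), both together, pseudocounts of 0.1 and 0.5, quantile normalization, median-of-ratios scaling, no filter, a filter at a mean of 5 FPKM, moderation that is robust, no mean-variance trend, and each library left out.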

Additional observations from a re-analysis of the deposited data

How the results depend on the processing

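The count of 0 purinergic genes past the threshold was the same in all 17 alternatives. As these called only 0 to 18 of all genes tested, 0 is what this background gives. At an unadjusted limma p under 0.05 the purinergic count was also 0 in each. Over all genes that count was 1036 to 1657 of 12222 (12327 without the filter). With a mean of at least 5 FPKM it was 791 of 7079. The smallest BH adjusted p of a purinergic gene was 0.546 to 0.726. A mean of at least 5 FPKM left P2rx4, P2rx7 and Entpd1 to test. P2ry2 turned below control with quantile normalization (-0.0017), and with a library left out it ranged from -0.0517 to 0.0938. P2ry6 turned below control with median-of-ratios scaling (-0.0018) and quantile normalization (-0.0220), and ranged from -0.0576 to 0.0572, and Panx1 from -0.0898 to 0.0338. Among other genes, none of them past the test, P2ry1 ranged from -0.147 to 0.0056, Lrrc8a from -0.277 to 0.0438 and Calhm2 from -0.0476 to 0.0891 with a library left out. Flt1 turned to 0.0073 with the GC and length trend removed, with or without a block, and Acta2 to -0.0037 in both and to -0.0400 with quantile normalization. With a library left out, Flt1 ranged from -0.0566 to 0.0100 and Acta2 from -0.0507 to 0.0708.

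Over all genes, 10 passed as reported, 6 to 18 with a library left out (18 without control library 2, 6 without knockdown library 2 or 3), and 0 with the replicate number as a block, without and with the GC and length trend removed (1330 and 1414 at an unadjusted p under 0.05). Gch1 then had a limma BH adjusted p of 0.0604 with the block and 0.0708 with both. The replicate numbers were not treated as pairs in the reported fit. Departures from the group means had a correlation across genes of 0.095, 0.059 and 0.094 between same-numbered libraries, and of -0.0999 to 0.0134 between the others. Each library was nearest to its own number, which is a hint only. Depth limits the weakest gene, Adora2b, most.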

Other observations

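A few genes around the purinergic receptors differed more between libraries of 1 group than between groups, a search made after the values were seen. Of 110 purinergic and pathway genes at 1 FPKM or more in every library, 5 had a highest value at least 2 times the lowest within a group, as had 2.09% of 10762 such genes of all kinds, and 0 of the 7 purinergic genes (largest ratio 1.37). Nek7, a kinase that binds NLRP3, was at 3.94, 12.5 and 11.6 FPKM in the controls and 4.18, 4.04 and 12.4 FPKM in the knockdown libraries. It thus took a low value in 3 libraries and a high one in the other 3, in both groups. The annotation of Nek7 overlaps Gm37080 and Gm37101 on the same strand, at 0.690 and 0.953 FPKM in the controls, so the split of reads is uncertain.

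The arrestin gene Arrb1, whose product takes receptors out of signalling, was at 11.3, 4.64 and 4.54 FPKM in the controls and 4.92, 11.4 and 11.8 FPKM in the knockdown libraries. The calcium channel gene Orai3 was at 2.27, 6.49 and 2.58 FPKM in the controls and 3.09, 6.66 and 6.90 FPKM in the knockdown libraries. Both fell into 2 levels with no value between. Tlr4, the endotoxin receptor gene, was at 6.60 FPKM in control library 2 and between 1.03 and 1.54 FPKM in the other 5, and Orai1 at 4.27 FPKM in knockdown library 1 and between 8.92 and 10.0 FPKM in the other 5. What sets these levels was not tested.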
